A study of Mus musculus with 9 samples.

Results

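The nuclear-encoded subunits of the mitochondrial respiratory chain were followed as cultured mouse embryonic stem cells (mESCs) differentiated towards neural cells. The members were all probes of the array whose gene symbol in the probe annotation starts with Nduf, Uqcr, Atp5 or Cox4 to Cox8, or is Sdha, Sdhb, Sdhc or Sdhd. This rule took 131 of 46643 probes, which stand for 87 of the 19405 genes with a symbol. By complex these were 33 genes of complex I, 4 of complex II, 8 of complex III, 18 of complex IV and 17 of complex V (ATP synthase), with 7 Nduf-named assembly factors of complex I described apart. Ndufa4, once counted with complex I and now placed in complex IV, was put with complex IV.

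The cells were the mESC line named G6B-2 in the labels (B6G-2 in the methods), which formed embryoid bodies (EBs) and then neurospheres and neural cells. Each of the 9 arrays was 1 condition, given by its day of differentiation (DoD). They were undifferentiated cells (DoD 0), EBs at DoD 2, EBs at DoD 8 and cultures at DoD 36, and the last stage is named day 29 in the sample labels and DoD 36 in the methods. The DoD 8 and DoD 36 cells had been exposed from DoD 2 to DoD 6 to vehicle (C, 0.1% ethanol by the labels) or to retinoic acid (RA) at 1 nM (R9, DoD 8 only), 10 nM (R8) or 100 nM (R7). According to the methods the RNA of 6 biological replicates was mixed before hybridization, which is not stated for the R9 array. All conditions come from a single cell line, and with 1 array per condition no difference below has a replicate check or a p-value.

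Complexes I and II take electrons from NADH and succinate, complex III passes them from ubiquinol to cytochrome c, and complex IV, cytochrome c oxidase, hands them to oxygen. The proton gradient that complexes I, III and IV build drives ATP synthesis by complex V. A few core subunits are encoded in mitochondrial DNA, most subunits are nuclear, and some complex IV subunits exist as a common form and as a form best known from heart and skeletal muscle (Cox6a2, Cox7a1, Cox8b), testis (Cox6b2, Cox7b2, Cox8c) or lung (Cox4i2). Pluripotent cells are known for their high glycolysis and neurons for their reliance on respiration.

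All 87 genes matched RefSeq by gene ID (mouse build GRCm38.p6), and 0 lay on the mitochondrial genome. A promoter window of 300 bases, from 250 bases before to 50 bases after the gene's start, was found for 72 of the 87. Cox6a2 was among the genes without a window, so its promoter was not searched. Sites of the nuclear respiratory factors are known from promoters of this family, so short motifs were counted on both strands. The NRF1 core GCGCATGC was found in the windows of 11 of 72 members (15.3%), against 2.8% of 27025 windows of all genes. The GABP (NRF2) core CCGGAAG was found in 18 members (25.0%), against 9.1% of all windows, and the YY1 core AAGATGG in 11 members (15.3%), against 6.5%. The MEF2 letters TATTTATA and TAAAAATA were in 0 members, against 1.8% and 2.7% of all windows. The E-box CANNTG was in 70.8% of members and 72.1% of all windows, and its form CAGCTG, which is also counted in CANNTG, in 6.9% of members and 16.1% of all windows. A match is a description of the letters and not of a bound site.

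The windows of the common complex IV genes Cox6a1 (chr5:115348909-115349208, minus strand) and Cox8a (chr19:7217567-7217866, minus strand) and of the complex I gene Ndufa6 (chr15:82354242-82354541, minus strand) are shown from 5′ to 3′. Of the 9 genes at least 2-fold higher in DoD 36 C than in DoD 8 C, 7 had a window, and these 3 are the ones with an NRF1 or GABP core. The windows of the other 4, Atp5j, Ndufa13, Ndufb10 and Ndufb5, held neither core. Over all 72 member windows, 11 held the NRF1 core and 18 the GABP core, some of them both. Whether a core goes with the difference was not tested. Capitals mark the NRF1 and GABP cores on either strand.
Cox6a1: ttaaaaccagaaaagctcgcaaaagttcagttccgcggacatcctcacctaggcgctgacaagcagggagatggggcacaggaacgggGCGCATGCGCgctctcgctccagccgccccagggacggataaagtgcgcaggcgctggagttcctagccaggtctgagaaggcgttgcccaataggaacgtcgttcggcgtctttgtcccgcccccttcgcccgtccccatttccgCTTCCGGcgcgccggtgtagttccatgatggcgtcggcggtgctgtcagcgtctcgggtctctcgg
Cox8a: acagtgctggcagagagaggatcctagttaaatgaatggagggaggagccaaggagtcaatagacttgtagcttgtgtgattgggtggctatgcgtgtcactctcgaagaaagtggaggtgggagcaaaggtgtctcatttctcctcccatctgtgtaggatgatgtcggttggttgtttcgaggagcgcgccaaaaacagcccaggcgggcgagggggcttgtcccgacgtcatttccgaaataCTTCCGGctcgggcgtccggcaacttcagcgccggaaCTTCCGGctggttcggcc
Ndufa6: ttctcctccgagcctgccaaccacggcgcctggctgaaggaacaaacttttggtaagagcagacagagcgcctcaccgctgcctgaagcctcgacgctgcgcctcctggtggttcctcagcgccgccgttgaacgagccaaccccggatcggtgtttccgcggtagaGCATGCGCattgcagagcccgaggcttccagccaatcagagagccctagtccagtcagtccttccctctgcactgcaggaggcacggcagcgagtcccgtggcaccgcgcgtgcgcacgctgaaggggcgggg
The Cox6a1 window held 2 overlapping NRF1 matches and 1 GABP match, that of Cox8a 2 GABP matches and that of Ndufa6 1 NRF1 match.

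The window of the muscle-form gene Cox8b (chr7:140900397-140900696, minus strand) is shown because Cox8b was detected on the RA arrays of DoD 36 alone. Capitals mark its 2 E-boxes, both CAGCTG.
Cox8b: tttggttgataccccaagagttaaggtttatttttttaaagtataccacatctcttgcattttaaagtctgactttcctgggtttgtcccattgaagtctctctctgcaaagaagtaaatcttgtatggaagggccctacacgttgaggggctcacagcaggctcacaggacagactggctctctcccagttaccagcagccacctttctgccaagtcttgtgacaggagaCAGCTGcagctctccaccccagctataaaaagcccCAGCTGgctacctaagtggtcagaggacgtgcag
The Cox8b window held 0 NRF1, 0 GABP and 0 YY1 cores.

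Signals were rebuilt from the deposited log2 values and scaled so that the probes detected on every array had 1 median, and a signal of at least 29.1 before scaling counted as detected. Each array had 20737 to 23009 detected probes, of which 105 to 112 were member probes. For each gene the brightest probe was used. Differences are log2 of scaled signals, and a gene counted as called at 2-fold (1 on the log2 scale). The upper edge of the background, the 0.99 quantile of probes at the floor elsewhere, was 56.0 on DoD 36 R8 and 77.6 on DoD 36 R7 and at most 32.2 on the other 7 arrays. As a check of the labels, the summed signal of 8 pluripotency genes was 48322.5 at DoD 0, 51673.1 on DoD 8 C and 1201.0 on DoD 36 C. The summed signal of 6 astrocyte genes was 9209.5 on DoD 36 R8 and 39379.9 on DoD 36 R7, against 1197.5 on DoD 36 C. That of 9 neuronal genes was 8427.5 and 2444.8, against 3579.4, but it was also 4526.9 at DoD 0 and 3810.1 at DoD 2. The neuronal sum, of which Stmn2 gave 3266.5 at DoD 0, thus does not set DoD 36 C or R7 apart from undifferentiated cells. Single genes went both ways between DoD 36 C and DoD 0. Dcx (422.4 and 5.8), Snap25 (808.2 and 218.5), Syt1 (388.9 and 54.5), Gad1 (253.9 and 56.8) and Tubb3 (155.6 and 125.2) were higher. Stmn2 (941.0 and 3266.5), Elavl3 (460.4 and 582.3) and Rbfox3 (120.8 and 194.5) were lower. Against DoD 8 C, 8 of 8 measured neuronal genes were above 0 on DoD 36 C, with a median of 2.58. In mixed cultures, more cells of a type and more RNA per cell cannot be told apart.

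The respiratory chain genes were detected nearly everywhere and varied little. Of the 87 genes, 77 were detected on all 9 arrays, and 79 to 81 were detected on any given array. The range of a gene over the 9 arrays had a median of 0.84 on the log2 scale for these 77 members, against 1.58 for the 9670 genes detected on all arrays. A range of at least 2-fold was found in 26 members (33.8%), against 78.5% of all genes. Among genes with a mean signal of at least 1000, these shares were 23.8% of 63 members and 73.6% of 4203 genes. Under the authors' own scaling, to the 0.75 quantile of each array, the share among members detected on all arrays was 46.8%. It was 23.4% without scaling and 22.1% after quantile normalization, with 74.7 to 82.5% among all genes over these settings.

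The probes of 4 genes gave no detected signal on any array, namely Ndufs1 (a core iron-sulfur subunit of complex I), Sdha (the flavoprotein of complex II), the complex I assembly factor Ndufaf6 and the small complex V subunit Atp5md. They are not described further, since a probe at the floor does not show that the gene is silent. Uqcrfs1, the Rieske iron-sulfur protein of complex III, was detected on 3 arrays, with a highest signal of 47.7 at DoD 2, and 8 very bright genes (Cox4i1, Cox5b, Cox6a1, Cox7c, Atp5b, Atp5g3, Atp5j2 and Atp5l) have differences but no exact level.

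**Figure D1:**
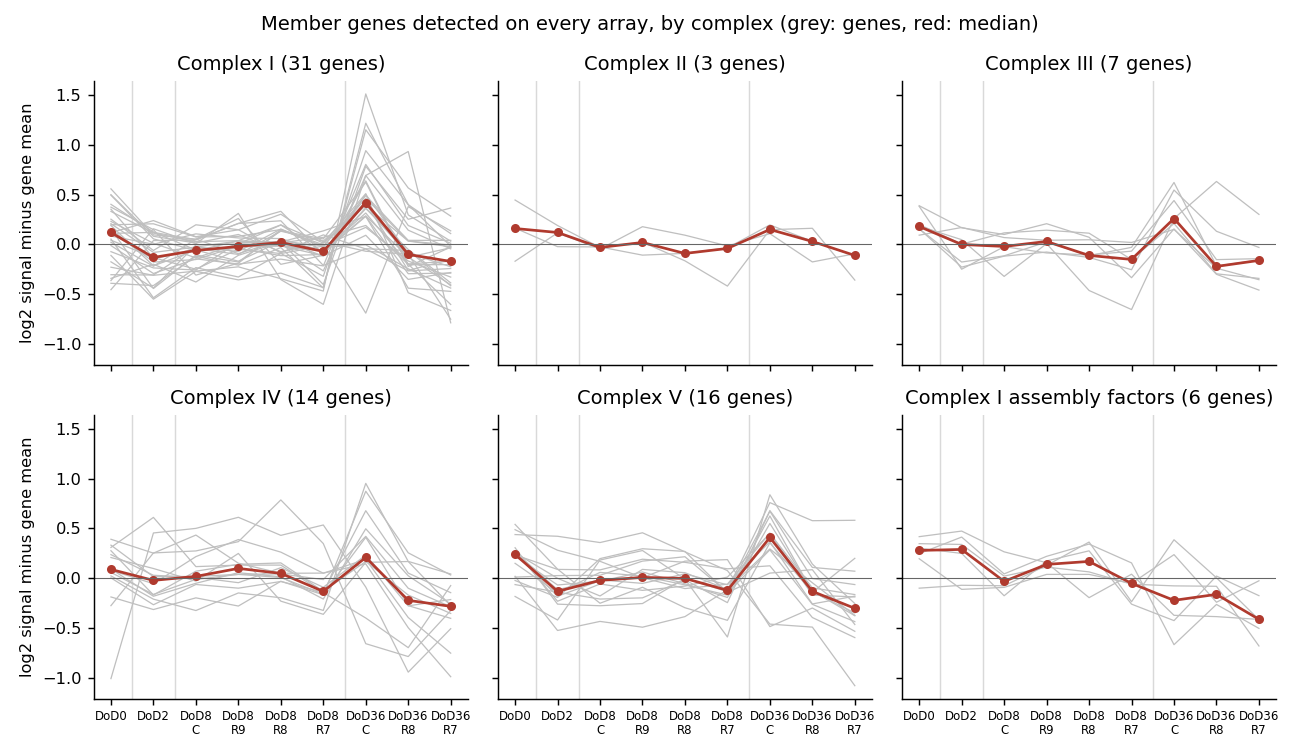
Each panel shows the log2 scaled signal of the members of a complex detected on every array, minus the gene's own mean, over the 9 arrays (x axis) in order of day and RA dose. Grey lines are genes and the red line with points is their median, which on DoD 36 C was 0.42 for complex I, 0.41 for complex V and -0.22 for the complex I assembly factors.

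The steadiest members belonged to complex II, which is also the succinate dehydrogenase of the citrate cycle. Sdhb, its iron-sulfur subunit, had signals of 4510.3 at DoD 0, 3962.6 at DoD 2, 3956.0, 3737.7, 3784.3 and 3927.5 on C, R9, R8 and R7 of DoD 8, and 4610.7, 4111.4 and 3722.4 on C, R8 and R7 of DoD 36. Its range of 0.31 was the smallest of the 77 members. Sdhc, a membrane anchor, had a range of 0.35, and Sdhd, the other anchor, 0.86, with its lowest signal of 805.8 on DoD 8 R7.

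At DoD 2 the members were slightly lower than at DoD 0, with a median difference of -0.22 against -0.08 over all genes, and 17 of 81 members were above 0. Only Cox7a1 was at least 2-fold higher (6.17% of 12423 genes were) and only Ndufc2 at least 2-fold lower (4.77% of genes). Cox7a1, the muscle form of the Cox7a subunit, had a signal of 2363.2 at DoD 2 and 859.7 at DoD 0, a difference of 1.46. It stayed between 2324.4 and 2635.3 on the 4 arrays of DoD 8 and was at 1622.8, 899.5 and 1215.2 on C, R8 and R7 of DoD 36. Thus it was high in EBs and lower both in mESCs and in the DoD 36 cultures. Its common counterpart Cox7a2 differed by -0.44 between DoD 2 and DoD 0 (1150.7 and 1563.6).

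Ndufc2, a small accessory subunit of complex I, lay close to the detection level. Its signals were 76.0 at DoD 0, 31.4 at DoD 2, 81.7, 80.6, 67.6 and 27.4 on C, R9, R8 and R7 of DoD 8, and 79.6, 83.3 and 57.8 on C, R8 and R7 of DoD 36. Its low values at DoD 2 and on DoD 8 R7 lie behind 3 of the 2-fold calls here, which were lost when detection was set at 50 or 100.

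From DoD 2 to DoD 8 without RA the family hardly differed. The median difference of DoD 8 C over DoD 2 was 0.01, against -0.04 over all genes, with 43 of 81 members above 0. Ndufc2 alone was at least 2-fold higher (1.38, where 6.08% of genes were higher) and 0 members were at least 2-fold lower (4.82% of genes). Complex II (3 genes) had a median of -0.16 and complex IV (16 genes) of 0.08.

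At DoD 36 without RA most subunits were higher than at DoD 8. The median difference of DoD 36 C over DoD 8 C was 0.39, against 0.15 over all genes and 0.23 over the genes with a mean signal of at least 1000, and 63 of 81 members were above 0. Of these members 9 were at least 2-fold higher, where 23.0% of all genes were, and 0 were at least 2-fold lower, where 16.7% of all genes were. Medians were 0.45 for complex I, 0.18 for complex II, 0.47 for complex III, 0.21 for complex IV and 0.49 for complex V. In complex III, 8 of 8 members were above 0, with Uqcrfs1, near the detection level, as a bound. Cyc1, the cytochrome c1 of complex III, is outside the symbol rule and went the other way. It was at 4049.0 on DoD 36 C and 6266.2 on DoD 8 C, a difference of -0.63. The 6 assembly factors of complex I had a median of -0.17, with 2 above 0.

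**Figure D2:**
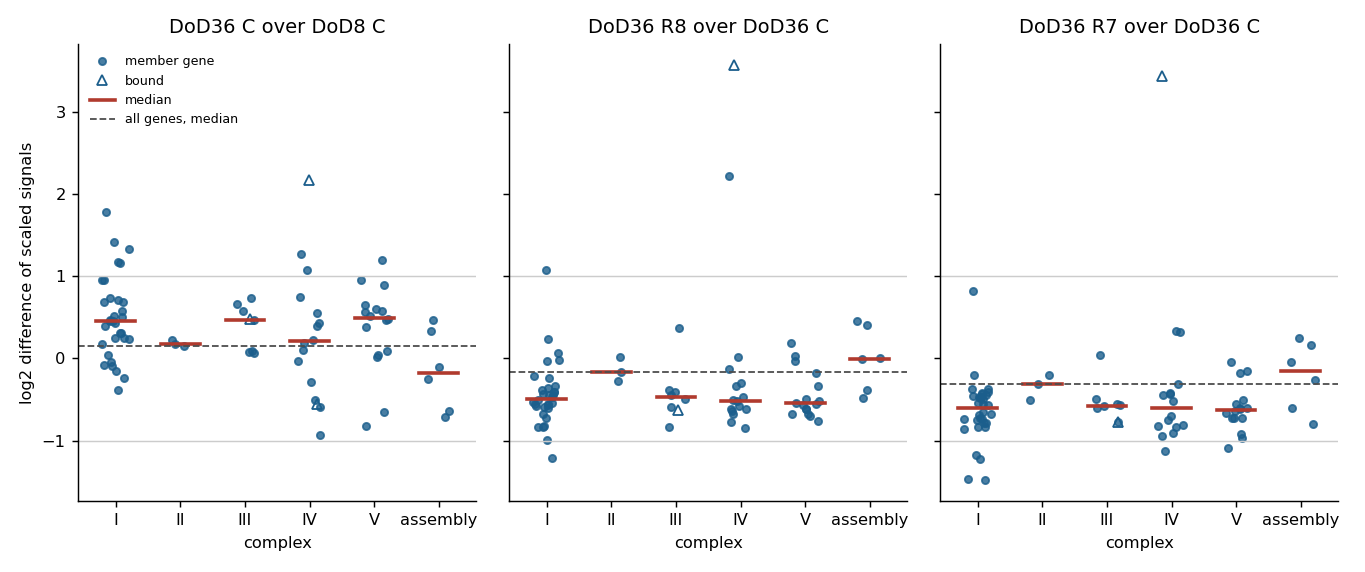
Each point is a member gene, placed by complex (x axis) and by its log2 difference of scaled signals (y axis) in DoD 36 C over DoD 8 C (left) and in DoD 36 R8 and R7 over DoD 36 C (middle, right). Triangles are bounds for genes detected on 1 of the compared arrays, red bars are medians per complex, the dashed line is the median over all genes and grey lines mark 2-fold. The highest triangles in the middle and right panels are Cox8b at 3.57 and 3.43.

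Accessory subunits of complex I gave 5 of the 9 calls. Ndufa6, which belongs to the matrix arm, had a signal of 4047.8 on DoD 36 C and 1182.6 on DoD 8 C, a difference of 1.78. On the other arrays it was at 1214.9 at DoD 0, 1148.6 at DoD 2, 1218.5, 1122.3 and 1029.6 on R9, R8 and R7 of DoD 8, and 1747.4 and 1456.4 on R8 and R7 of DoD 36. DoD 36 C thus stood above all other arrays for this gene. The membrane-arm subunits Ndufb10 (6483.0 on DoD 36 C and 2426.6 on DoD 8 C, 1.42), Ndufb9 (2218.2 and 881.3, 1.33) and Ndufb5 (2045.4 and 915.9, 1.16) were likewise highest of all 9 arrays on DoD 36 C, as was Ndufa13, also known as GRIM-19 (53602.7 and 23797.4, 1.17). The 5 measured core genes spanned -0.09 to 0.95, within the span of -0.38 to 1.78 of complex I as a whole. Ndufs7 (0.95), Ndufs3 (0.71) and Ndufs8 (0.58) belong to the module that hands electrons to ubiquinone. A second Ndufs3 probe, detected on all 9 arrays, gave -0.3, with 2134.1 on DoD 36 C and 2623.1 on DoD 8 C. Ndufv1, which binds the flavin that accepts electrons from NADH, differed by -0.09 and Ndufv2 by -0.08.

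In complex IV the common forms Cox8a and Cox6a1 were at least 2-fold higher. Cox8a had a signal of 40151.9 on DoD 36 C and 16598.9 on DoD 8 C, a difference of 1.27, and that of Cox6a1 was 1.07. The Cox6a1 call was lost under 3 of 7 alternatives, with values down to 0.68. Cox4i1 differed by 0.55 and Cox5b by 0.43, whereas Cox5a, which sits beside Cox4 in the enzyme, differed by -0.03 (20890.8 and 21304.3). The less common forms Cox4i2 (-0.93), Cox7a1 (-0.59) and Cox6b2 (-0.51) ran the other way, while Cox6a2, also a less common form, was higher by at least 2.17.

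In complex V the peripheral stalk subunit Atp5j, coupling factor 6, was at 1512.3 on DoD 36 C and 662.8 on DoD 8 C, a difference of 1.19. The catalytic head differed by 0.60 for the alpha subunit Atp5a1 and 0.47 for the beta subunit Atp5b. Atp5c1, the rotating gamma subunit, was in contrast at 11197.8 on DoD 36 C and 19719.6 on DoD 8 C, a difference of -0.82, the lowest of complex V. The 3 genes for the proton-carrying c subunit, Atp5g1, Atp5g2 and Atp5g3, differed by 0.09, 0.04 and 0.02. In complex III the core proteins Uqcrc1 and Uqcrc2 differed by 0.06 and 0.08, and the small subunits Uqcr11, Uqcrb, Uqcrh and Uqcr10 by 0.73, 0.66, 0.46 and 0.09.

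At DoD 8 the RA arrays differed little from C. The median difference was 0.06 for R9 over C, 0.05 for R8 over C and -0.08 for R7 over C, with all-gene medians of 0.05, 0.03 and -0.05. For R9, 0 of 80 members were called in either direction, where 2.21% of genes were higher and 1.5% lower. For R8, 0 of 79 members were called, where 3.21% of genes were higher and 2.08% lower. For R7, 0 of 79 were higher (5.62% of genes) and Ndufc2 was lower by at least 1.57 (3.48% of genes). The spread of the 79 members detected on both R9 and C, a robust SD of 0.134, served as a gauge of the spread between arrays, although R9 had received 1 nM RA.

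At DoD 36 the RA arrays were lower than C in most subunits. The median difference was -0.48 for R8 over C (12 of 81 members above 0) and -0.58 for R7 over C (7 of 81 above 0), against -0.17 and -0.31 over all genes. The genes with a mean signal of at least 1000 had medians of -0.31 and -0.51, so that on R7 bright genes in general were lower by nearly as much. Both comparisons share the C array, which was the highest of the 9 for 44 of 77 members. That count was 51 under the deposited scaling, 34 without scaling and 22 after quantile normalization. For R8, 3 members were at least 2-fold higher (11.5% of genes) and 1 at least 2-fold lower (8.79% of genes). For R7, 1 member was at least 2-fold higher (13.1% of genes) and 6 were at least 2-fold lower (12.7% of genes).

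By complex the medians of R8 and R7 over C were -0.49 and -0.61 for complex I, -0.17 and -0.31 for complex II, -0.48 and -0.58 for complex III, -0.51 and -0.61 for complex IV and -0.55 and -0.63 for complex V. The complex I assembly factors had medians of -0.01 and -0.15. Ndufa6 was lower by 1.21 on the log2 scale on R8 and by 1.47 on R7. The other genes called lower on R7 were the accessory complex I subunits Ndufb2 (a dim probe, 88.7 on R7 and 246.7 on C, -1.48), Ndufb9 (944.7 and 2218.2, -1.23) and Ndufa7 (8387.9 and 18872.4, -1.17), the common complex IV gene Cox7b (124.0 and 271.3, -1.13) and Atp5e, the epsilon subunit of the ATP synthase (195.2 and 415.6, -1.09). Ndufb11, an accessory subunit with a dim probe, ran the other way, with 181.0 on R8 and 152.9 on R7 against 86.4 on C, differences of 1.07 and 0.82. Its call on R8 held under 3 of 7 alternatives and was lost under the other 4, with values down to 0.77.

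The size of these shifts depended on how the arrays were scaled. For DoD 36 C over DoD 8 C the members' median was 0.51 against 0.28 over all genes under the scaling of the deposited values, 0.24 against -0.02 without scaling and 0.10 against 0.10 after quantile normalization. For DoD 36 R8 over C the pairs were -0.73 and -0.43, -0.17 and 0.14, and -0.13 and -0.08. For DoD 36 R7 over C they were -0.80 and -0.54, -0.12 and 0.16, and -0.07 and -0.16. The sign of the members' medians held under these scalings, but after quantile normalization the members no longer stood apart from all genes in the first comparison and stood above them in the last.

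**Figure D3:**
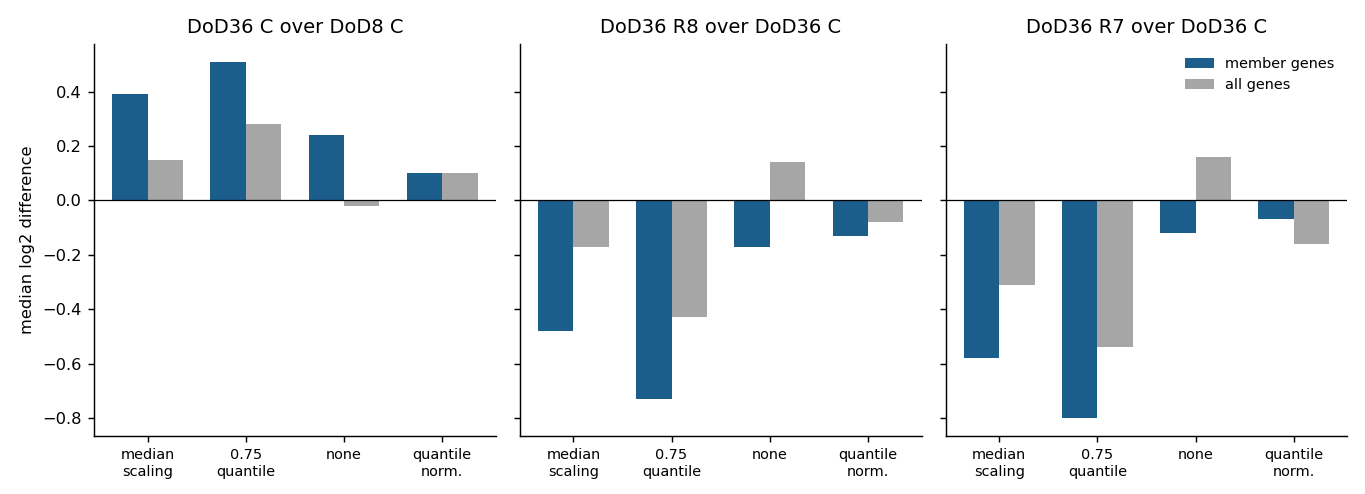
Bars give the median log2 difference (y axis) of member genes (blue) and of all genes (grey) under 4 ways of scaling the arrays (x axis), for DoD 36 C over DoD 8 C and for DoD 36 R8 and R7 over DoD 36 C. The gap between blue and grey is alike under the first 3 scalings, between 0.23 and 0.26 in size in the left panel, and after quantile normalization it closes in the left panel, shrinks in the middle panel and turns round in the right panel.

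The 4 largest differences of the family belonged to isoform genes of complex IV. Cox6a2, the muscle form of the Cox6a subunit (chr7:128205435-128206366, GRCm38.p6), was not detected at DoD 0, DoD 2 or on any array of DoD 8, with signals of 5.0 to 28.3. At DoD 36 it was at 613.7 on R8 and 106.4 on R7, against 131.7 on C. It was thus higher on R8 by 2.22 and lower on R7 by 0.31 on the log2 scale, and DoD 36 C lay above DoD 8 C by at least 2.17, or at least 0.22 where detection was set at 100. Its common counterpart Cox6a1 differed on the same arrays by -0.62 and -0.84.

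Cox8b, the muscle form of the Cox8 subunit (gene at chr7:140898942-140900446), showed another pattern. Its signals were 387.5 on DoD 36 R8 and 353.2 on DoD 36 R7, against 15.1 on DoD 36 C, and 4.7 to 5.8 on the 6 arrays of DoD 0 to DoD 8. It was detected on the RA arrays of DoD 36 alone, above C by at least 3.57 on R8 and at least 3.43 on R7. Its common counterpart Cox8a was lower on these arrays, by 0.78 and 0.91. For genes of 97.9 to 169.4 in signal, the level of Cox6a2 on DoD 36 C, the robust SD between R9 and C was 0.43, and for the dimmest genes (31.0 to 60.2) it was 0.554. The Cox6a2 difference on R8 and the Cox8b differences on both RA arrays exceeded these, whereas the Cox6a2 difference of -0.31 on R7 did not. Each rests on single arrays. Between R9 and C, 4.12% and 7.54% of the genes in these signal ranges were past 2-fold. The gauge comes from DoD 8, with background edges of 26.8 (C) and 29.1 (R9), against 56.0 (R8) and 77.6 (R7) at DoD 36.

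**Figure D4:**
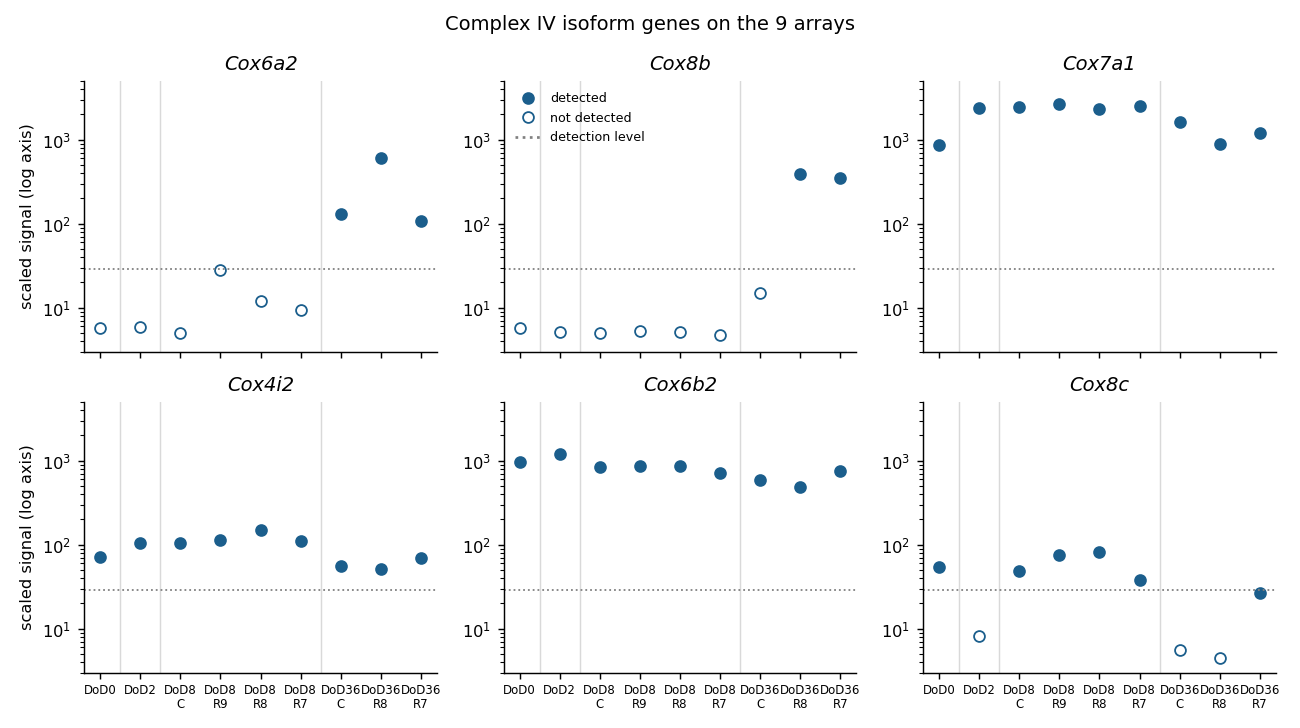
Scaled signals (y axis, log scale) of 6 complex IV isoform genes on the 9 arrays (x axis), with filled circles for detected and open circles for not detected values. The dotted line is the detection level of 29.1, which applies before scaling, so that a scaled value can lie just below it and still be detected. Cox6a2 and Cox8b are detected only at DoD 36, whereas Cox7a1 lies between 859.7 and 2635.3 throughout.

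Cox4i2, the lung form of Cox4, was dim, between 50.7 on DoD 36 R8 and 150.4 on DoD 8 R8. Cox6b2, the testis form of Cox6b, was detected on all arrays, from 484.1 on DoD 36 R8 up to 1196.2 at DoD 2. Cox8c, also known from testis, was at 53.5 at DoD 0 and at 48.1, 74.4, 80.7 and 37.8 on C, R9, R8 and R7 of DoD 8, but was not detected at DoD 2 or on C and R8 of DoD 36. Cox7b2 did not exceed 35.8 on any array.

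Because Cox6a2, Cox7a1 and Cox8b are known from muscle, 20 cardiac and skeletal muscle genes were read on the same arrays. Their summed signal was 34341.3 on DoD 36 R8 and 7074.8 on DoD 36 R7, against 24917.5 on DoD 36 C and 12385.8 on DoD 8 C. For R8 over C, 9 of 16 measured muscle genes were at least 2-fold higher (11.5% of all genes) and 1 lower (8.79%). Their median was 1.08, with 11 of 16 above 0, and Acta1 (-1.22), Myl7 (-0.72), Myl3 (-0.42), Ryr2 (-0.27) and Tnni3 (-0.06) below. For R7 over C, 0 of 11 were higher (13.1% of all genes) and 8 lower (12.7%), with a median of -1.17. Myl2, the ventricular myosin light chain, had the largest difference of the list on R8 over C, at least 7.22. Its signal was 4871.5 on R8 and 7.0 on R7, against 5.6 on C. Myod1 was at the floor on all 9 arrays. Myog, at 23.2, 4.5 and 13.0 on C, R8 and R7, was not above the detection level at DoD 36. Cox6a2 was highest on the array with the highest muscle sum, whereas Cox8b was nearly as high on R7, where that sum was the lowest of the 3 arrays of DoD 36. Among 6 markers of brown fat and sperm cells, Ucp1, the uncoupling protein of brown fat, was at 33.3 on R8 and 17.1 on R7, against 26.8 on C, while Cidea, which is known from brown fat too, was at 129.4 on R8 and 159.6 on R7, against 44.9 on C, and so higher on both RA arrays, as Cox8b was. On DoD 8 C, where Cox8b was not detected, Cidea was at 309.5. The Ucp1 signal on R8 lay below the background edge of 56.0 on that array. The sum over the 6 markers was 332.4 and 309.6, against 312.8. It mixes brown fat and sperm cell genes, and the sperm gene Prm2 was at 144.3 and 113.8, against 185.4. The sum therefore does not describe brown fat genes alone. The part of such cells in the isoform signals was not tested.

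The 10 genes whose profile over the 9 arrays was most like that of Cox6a2, by Pearson correlation of log2 signals among 7981 genes with a range of at least 4-fold, were Ces1d (0.983), Kcnc1 (0.974), Adipoq (0.967), Tff3 (0.966), Diras2 (0.958), Coa4 (0.957), Srpk3 (0.957), Rcn2 (0.955), Gng4 (0.954) and Gstk1 (0.951). Of these, 8 were, like Cox6a2, detected on few arrays (2 to 5), so that values near the floor weigh in the likeness. Adipoq, the fat cell hormone adiponectin, was at 2059.3 on DoD 36 R8 and 744.2 on DoD 36 R7, against 414.7 on DoD 36 C. Srpk3, a kinase of striated muscle, was at 258.1 and 138.7, against 156.7.

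Of the neighbouring pathways, glycolysis had the lowest median in DoD 36 C over DoD 8 C, and the electron carriers and assembly factors had a median near that of the respiratory chain. Among 17 measured genes of glycolysis and glucose uptake, 9 were lower by 2-fold or more and 1 was higher in DoD 36 C than in DoD 8 C, with a median of -1.14 against 0.39 for the respiratory chain. Pgk1, the phosphoglycerate kinase, was at 10948.5 on DoD 36 C and 24126.3 on DoD 8 C, and the glucose transporter Slc2a1 at 6829.0 and 29108.9. Of 15 citrate cycle and pyruvate dehydrogenase genes, 2 were higher and 4 lower, with a median of -0.07. Of 15 measured electron carriers (with Cyc1) and assembly factors of other complexes, 0 were higher and 1 lower, with a median of 0.42. Cycs, cytochrome c, was at 4440.3 on DoD 36 C and 7720.3 on DoD 8 C, while Cox17, the copper chaperone of complex IV, was at 23969.6 and 12630.2.

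Among 12 regulators of mitochondrial biogenesis on the array, 10 could be measured in DoD 36 C over DoD 8 C. Of these, 4 were higher by 2-fold or more (23.0% of all genes) and 2 lower (16.7% of all genes). Ppargc1a, the coactivator PGC-1alpha, was not detected at DoD 0 or DoD 2 or on DoD 8 (5.0 to 22.6) and was at 209.9 on DoD 36 R8 and 431.4 on DoD 36 R7, against 119.3 on DoD 36 C. Esrra, the nuclear receptor ERRalpha, was at 2006.0 on DoD 36 C and 618.5 on DoD 8 C, and at 980.9 and 1396.4 on R8 and R7 of DoD 36. Ppargc1a was the 1 regulator of 10 that was higher on R8 and on R7 than on C, and the list had medians of -0.38 and -0.54. Its relative Ppargc1b was at 248.0 on R8 and 183.9 on R7, against 526.3 on C, differences of -1.09 and -1.52. Tfam, which packs and transcribes mitochondrial DNA, was at 4040.3 at DoD 0, 3015.5 at DoD 2, 2399.9 on DoD 8 C and 1824.0 on DoD 36 C, and Gabpa, a subunit of the factor that binds the GABP core, at 589.8, 612.8, 672.8 and 364.7.

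Different probes of a gene did not always give the same difference. Of 34 members with several probes, 24 had at least 2 detected in some comparison, and 12 of these had probes that differed by 1 or more on the log2 scale in at least 1 comparison (Atp5k, Atp5l, Atp5mpl, Atp5pb, Ndufa5, Ndufab1, Ndufaf3, Ndufb2, Ndufb8, Ndufs3, Ndufs4 and Ndufv3). The widest case was Ndufv3, an accessory subunit, where the bright probe was lower by 0.41 on DoD 36 R8 than on C (13707.0 and 18205.3) and a dim probe was higher by 2.11 (460.6 and 106.5). The median spread over all such cases was 0.29.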

How the data were processed

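The 9 arrays were Illumina mouse whole-genome bead arrays, 1 per condition, with the RNA of 6 biological replicates mixed before hybridization according to the methods. The authors deposited log2 values, normalized by median centering in GeneSpring GX, that is, log2 signals from which a constant of the array and a baseline of the probe were taken away. A second table with 9 columns that could not be matched to samples by name was not used.

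Signals were rebuilt as whole steps of 0.1 units above a floor of 5.0. Among 3323 probes solved exactly with this step, the single-precision rounding of the deposited log2 values matched it for 99.6% of values. Other step sizes, tried on the same levels, matched at most 86.6%. Because these probes were chosen by their fit to the 0.1 step, the comparison cannot test that step. The rebuilding was also run on simulated data made with the same step and floor, which therefore cannot test these either. In the deposited data the rebuilding left out 9 probes, and 181 have only an approximate level.

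Detection was set at a signal of 29.1, found as the 0.99 quantile of background probes on each array and then the median of the 9 arrays. The arrays were scaled to the median of the 16144 probes detected on all of them, and each gene was read by its brightest probe. A gene not detected on 1 of the compared arrays was set to the detection level there and gives a bound. No test was run, because each condition has 1 array, and counts are of genes at least 2-fold different.

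Named in the text were the isoform genes and their common counterparts, core genes of each complex, up to 4 members with the largest 2-fold differences per comparison, members whose probes disagreed, and the 10 genes most like Cox6a2. Other genes named were chosen after their values were seen. The members, gene lists and motifs were chosen with earlier results of these data known. Gene positions and promoter sequences are from RefSeq (GRCm38.p6). Python 3.11.15, numpy 2.4.6, pandas 2.3.3 and numba 0.67.0 were used. Alternatives were 3 other scalings, detection at 50 or 100, the mean over the probes of a gene, an offset of 16 and, at DoD 8, R9 in place of C. The 3 scalings were to the 0.75 quantile of each array, none, and quantile normalization. The first is the one called the deposited or the authors' own scaling here, although the methods name median centering.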

Additional observations from a re-analysis of the deposited data

How the results depend on the processing

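The 24 medians and counts of the 8 comparisons were recomputed under each alternative. A median that moved by less than 0.134, the robust SD of members between R9 and C, and a count within 1.5 times of the reported one were taken as unmoved, which held for 45 of 58 medians and 99 of 116 counts. The cause of the other moves was not tested.

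The median of DoD 2 over DoD 0 was -0.07 without scaling and -0.06 after quantile normalization. That of DoD 36 C over DoD 8 C was 0.24 without scaling, 0.10 after quantile normalization and 0.22 with detection at 100. That of DoD 36 R8 over C was -0.73 under the deposited scaling, -0.17 without scaling, -0.13 after quantile normalization and -0.30 with detection at 100. That of DoD 36 R7 over C was -0.80, -0.12, -0.07 and -0.38 under the same 4 settings.

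Of the counts, the single gene lower at DoD 2 became 0 with detection at 50 or 100 and with the offset of 16, the single gene higher on DoD 8 C than at DoD 2 became 0 with detection at 50 or 100, and the single gene lower on DoD 8 R7 became 0 with detection at 50 or 100. For DoD 36 C over DoD 8 C, 5 genes were higher after quantile normalization in place of 9, and 1 without scaling and 2 after quantile normalization were lower in place of 0. For DoD 36 R8 over C, the genes lower numbered 9 under the deposited scaling, 0 without scaling and 0 after quantile normalization, in place of 1. For DoD 36 R7 over C, 20 were lower under the deposited scaling, 2 without scaling and 3 with detection at 100, in place of 6, and 2 were higher without scaling in place of 1.

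Among single genes, Cox7a1 at DoD 2, the genes Cox8a, Ndufa6, Ndufb10 and Ndufb9 in DoD 36 C over DoD 8 C, Cox6a2 and Cox8b on DoD 36 R8, and Cox8b, Ndufa6 and Ndufb2 on DoD 36 R7 were past 2-fold under all 7 alternatives. The other 14 of the 24 single-gene calls (Atp5e, Atp5j, Cox6a1, Cox7b, Ndufa13, Ndufa7, Ndufb11, Ndufb5 and Ndufc2, with Cox6a2 on DoD 36 C, Ndufa6 on R8 and Ndufb9 on R7 of DoD 36) were lost under 1 to 4 alternatives. Each condition is 1 array, the lower part of the signal range is set by background, and a bound moves with the detection level. The difference of Cox8b came down to 1.97 on R8 and 1.86 on R7 under the alternative that gave the least.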

Other observations

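A further 3 pairs of arrays were compared after the data had been seen. Against DoD 8 C, the members had a median difference of -0.10 on DoD 36 R8 and of -0.22 on DoD 36 R7, where all genes had 0.02 and -0.06. Between the RA arrays of DoD 36, the median of R7 over R8 was -0.16, against -0.10 over all genes. The complex V gene Atp5c1 was at 10968.7 on R8 and 7298.7 on R7, against 11197.8 on C of DoD 36, and its 3 lowest values of the 9 arrays were those of DoD 36. The brightest probes of the complex I assembly factors Ndufaf5 and Ndufaf7 were likewise lowest at DoD 36. They were at 619.6, 614.1 and 602.3 and at 560.5, 741.0 and 627.6 on C, R8 and R7. Their second probes, dimmer but detected on all 9 arrays, did not repeat this. That of Ndufaf5 was at 145.3, 177.0 and 127.6 on these arrays, against 82.8 on DoD 8 R8. That of Ndufaf7 was at 136.7, 146.0 and 149.4, against 143.1 on DoD 8 R7.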
